A study of Mus musculus with 8 samples.

Results

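Monoclonal regulatory T (Treg) cells were compared with monoclonal non-Treg cells in 4 of the 8 RNA-seq libraries of the series, 2 libraries a side, named A and B in each group. The libraries were taken by their labels: both groups were CD4+ cells from spleens of the strain NOD.TCRab.FoxP3GFP.Rag-/-, and the polyclonal libraries (NOD.FoxP3GFP) did not enter the contrast. The labels call the 2 cell types NT Treg and NT Non-Treg, and the series title names a nuclear transfer model, in which a mouse is made from the nucleus of a T cell. Per the series' design text, the Treg cells were positive and the non-Treg cells negative for a green fluorescent reporter of Foxp3. All cells compared here thus shared the NOD background, the T cell receptor genes, the reporter and the loss of a Rag gene, and differed by the reporter. The T cell that gave the receptor, the age and sex of the mice, the number of animals, any pooling and the sorting gates are not given in the sources used here. Whether A and B are separate animals is not stated. A p-value here therefore weighs a difference against the spread of 2 libraries, which may be technical.

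Treg cells are CD4+ T cells that hold other lymphocytes in check, and Foxp3 is the transcription factor that sets up and maintains their program. They respond to interleukin-2 through a receptor they carry at high density, and in the resting state they resemble naive T cells, while effector Treg cells lose lymph node homing molecules and gain receptors for tissues. Because a Rag-deficient mouse cannot rearrange receptor genes, its T cells carry the supplied receptor, so both groups here recognised antigen through the same receptor genes.

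Levels are reads per 1000000 reads assigned to genes (CPM), and the 4 libraries held 15220596 and 17708028 (Treg A and B) and 18033924 and 15504813 reads (non-Treg A and B). A count of 3 reads, the most that a count of 0 allows, was 0.166 to 0.197 CPM in these libraries, for counting error only. Fold changes are differences of the mean log2(CPM + 1) of 2 libraries a side, Treg minus non-Treg, given with their standard error (SE) and a p from limma adjusted over all genes (Benjamini-Hochberg). A gene was called at an adjusted p under 0.05, and "rose" and "fell" below mean higher and lower in Treg libraries among genes called. Foxp3 itself, on the X chromosome, measured 2709 and 2667 CPM in Treg and 405 and 319 CPM in non-Treg libraries. This is the order that the labels give. The polyclonal non-Treg libraries, which did not enter the contrast, had 81.9 and 84.2 CPM of Foxp3. Why the reporter-negative monoclonal libraries held more was not tested. Fold changes of Treg genes below are thus against libraries that held Foxp3 reads.

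Transcripts of other cell types differed between the groups. Over all genes tested 13.5% fell and 11.3% rose, the shares beside which the marker counts stand. Of 13 dendritic cell markers tested, 10 fell and 0 rose by limma. At an unadjusted p under 0.05, and by edgeR or DESeq2, 0 rose too. Their summed level was 733 and 689 CPM in Treg against 2521 and 2726 CPM in non-Treg libraries. Ccr7, which T cells also express, is among the 10 that fell and enters that sum. Flt3, the growth factor receptor of dendritic cells, measured 49.5 and 41.6 CPM in Treg and 195 and 238 CPM in non-Treg libraries. Zbtb46, a transcription factor of conventional dendritic cells, measured 16.4 and 14.7 against 51.8 and 64.4 CPM. Of 10 plasmacytoid dendritic cell markers, 7 fell, or 3 without non-Treg A and 4 without non-Treg B, with summed levels of 428 and 272 against 976 and 791 CPM.

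Among 14 genes of MHC class II presentation 13 fell, with summed levels of 7153 and 5401 CPM in Treg and 20121 and 22510.1 CPM in non-Treg libraries. Ciita, the master activator of class II genes, fell from 429 and 565 to 104 and 71.1 CPM. Of the 15 B cell markers, 8 passed the filter on low values and 6 of these fell, or 2 without non-Treg B, but the genes that define the lineage were at or near 0 in all 4 libraries: Ebf1 at 0, Pax5 at up to 0.111, Ms4a1 at up to 0.645 and Cd79a at up to 1.16 CPM. The B cell list's summed level was 94.5 and 67.7 against 343 and 384 CPM, mainly from Cd22 (53 and 42.1 against 202 and 245 CPM), a gene that dendritic cells can also carry. Neutrophil genes were higher in the A library of each group, and within each letter their sum was higher in the Treg library: 14 measured genes summed to 1631 and 558 CPM in Treg A and non-Treg A and to 302 and 106 CPM in the B libraries, and 0 of the 14 were called by limma, edgeR or DESeq2 (0 at an unadjusted p under 0.05), though 2 rose without Treg B or non-Treg A. Natural killer cell genes summed to 182 and 154 CPM in Treg and 354 and 342 CPM in non-Treg libraries, with 3 of 11 tested lower and 1 higher (1 and 0 without either non-Treg library, and 3 and 0 without Treg B). Of 18 macrophage and monocyte genes tested 3 fell and 1 rose, with sums of 1252 and 1027 against 1129 and 1024 CPM; 5 fell and 4 rose without Treg A, and 5 fell and 3 rose without Treg B.

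In bulk samples, fewer cells of a type and less RNA per cell cannot be told apart. The part of these other cells in the changes below was not tested. Of 631 genes tested that were under 1 CPM in every polyclonal library, 165 fell (26.1%) and 18 rose (2.85%). Such genes could pass the filter on low values through 1 monoclonal group alone, so this split is no test of their source. Genes above 0 CPM numbered 13075 and 12621 in Treg and 14589 and 13607 in non-Treg libraries. Of 9255 genes at 5 CPM or more in every polyclonal library, 1047 fell (11.3%) and 1192 rose (12.9%).

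**Figure D1:**
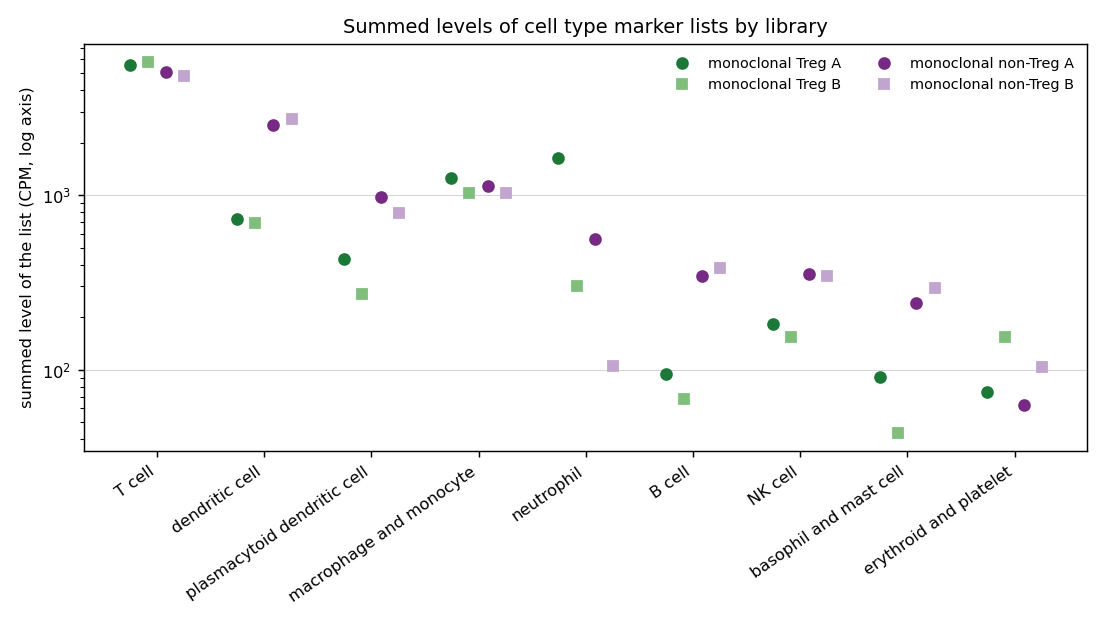
Summed level in CPM (log axis) of 9 cell type marker lists in each of the 4 libraries, with 1 point per library. Dendritic cell, plasmacytoid dendritic cell and B cell lists lay lower in both Treg libraries, the T cell list lay higher in both (5599 and 5759 against 5102 and 4820 CPM), and the neutrophil list was high in the A library of each group.

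Of 12369 genes tested, 3061 were called (24.7%), 1396 higher (11.3%) and 1665 lower (13.5%) in Treg libraries. Changes of at least 2-fold numbered 579 upward and 1015 downward, and those of at least 4-fold 129 and 321. The median log2 fold change over all genes was -0.02. Scaling each library to its summed CD3 gene level, as a stand-in for T cell RNA, moved that median to -0.55 and left 444 higher and 5376 lower calls, so higher calls made up 7.63% of calls in place of 45.6%. Under that scaling 295 of the 1396 higher genes had a negative fold change, and all 1665 lower genes were still called. The scaling multiplied Treg libraries by 0.823 and 0.817 and non-Treg libraries by 1.115 and 1.333, which lowers the fold changes of all genes. That the lower calls stayed is thus no check of them. Of the summed genes Cd3e and Cd3g were themselves called higher, and Cd3d and Cd247 were not called. List counts after this scaling stand beside its 444 and 5376 calls among 12369 genes. Without non-Treg A the calls were 532 and 562, and without non-Treg B 404 and 428, each with a single non-Treg library assumed to vary like the other group.

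**Figure D2:**
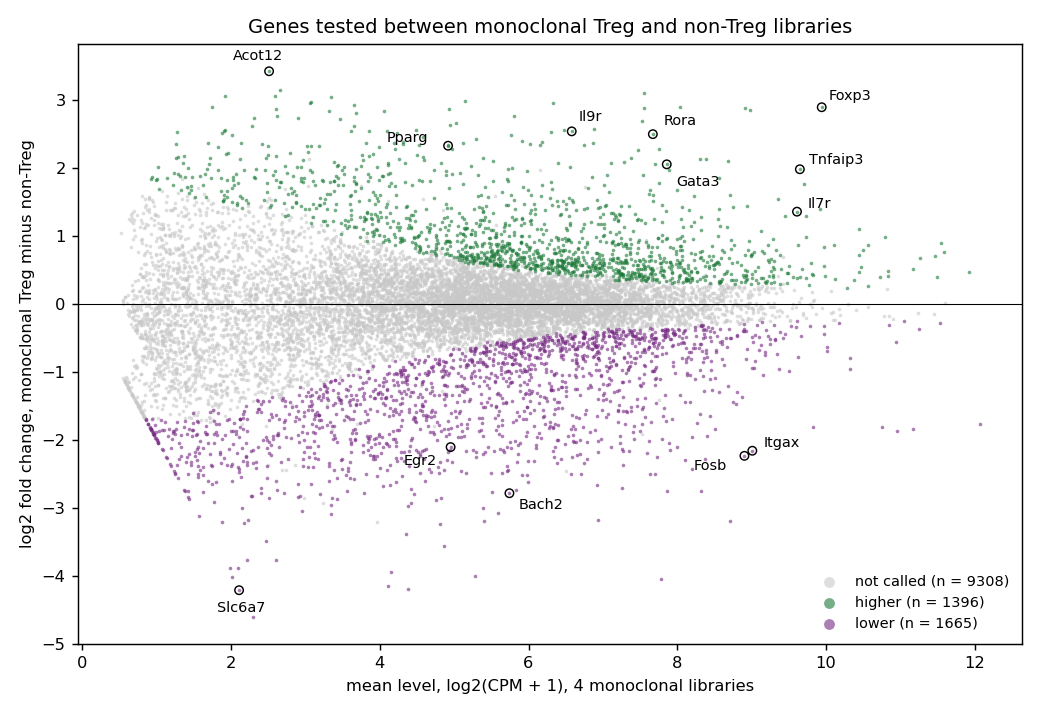
Log2 fold change (Treg minus non-Treg) against mean log2(CPM + 1) of the 4 libraries for the 12369 genes tested, with 1 point per gene. Called genes are green (1396 higher) and purple (1665 lower), grey genes were not called, and circled genes are described in the text.

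The Treg identity list moved almost entirely one way: 26 of 32 members rose, 1 fell (3 without Treg A), and the median log2 fold change was 2.15. Members beyond the best-known ones followed. Ikzf4, which encodes the Ikaros family protein Eos, measured 79 and 70.6 CPM in Treg and 18.1 and 17 CPM in non-Treg libraries (2.03, SE 0.20, adjusted p = 9.66792e-06). Capg, an actin-capping protein, measured 149 and 142 against 34.8 and 21.8 CPM (2.36, SE 0.21). Hopx, a homeobox protein known from peripheral Treg cells, measured 26.3 and 30.7 against 4.82 and 3.35 CPM (2.55, SE 0.35). In each of these the 2 groups of libraries did not overlap.

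Gzmb, which encodes the protease granzyme B, measured 43.8 and 45.6 CPM in Treg and 6.27 and 9.42 CPM in non-Treg libraries (2.39, SE 0.29, adjusted p = 4.39513e-05). The 1 member that fell was Cd83, a surface protein of activated lymphocytes and of dendritic cells, at 29.7 and 24.8 against 82.6 and 75.6 CPM (-1.51, SE 0.19). The 5 members not called included Gpr83, a receptor typical of thymus-derived Treg cells, at 22.3 and 8.64 against 25.3 and 15.5 CPM, where the groups overlapped. Entpd1, the ectonucleotidase CD39, also missed the threshold at 39 and 40.8 against 49.3 and 68.8 CPM (-0.53, SE 0.20, adjusted p = 0.0729434). Il10, the suppressive cytokine, was low throughout at 2.17 and 8.41 against 0.499 and 1.1 CPM (adjusted p = 0.0704402). Of the 17 suppressive and repair mediators 16 were tested, and 7 rose and 2 fell, but 4 rose and 0 fell without non-Treg A, 3 rose and 0 fell without non-Treg B, and 1 fell without Treg A or Treg B. Among those lost without either library were Areg (adjusted p up to 0.2475) and Penk (up to 0.355).

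**Figure D3:**
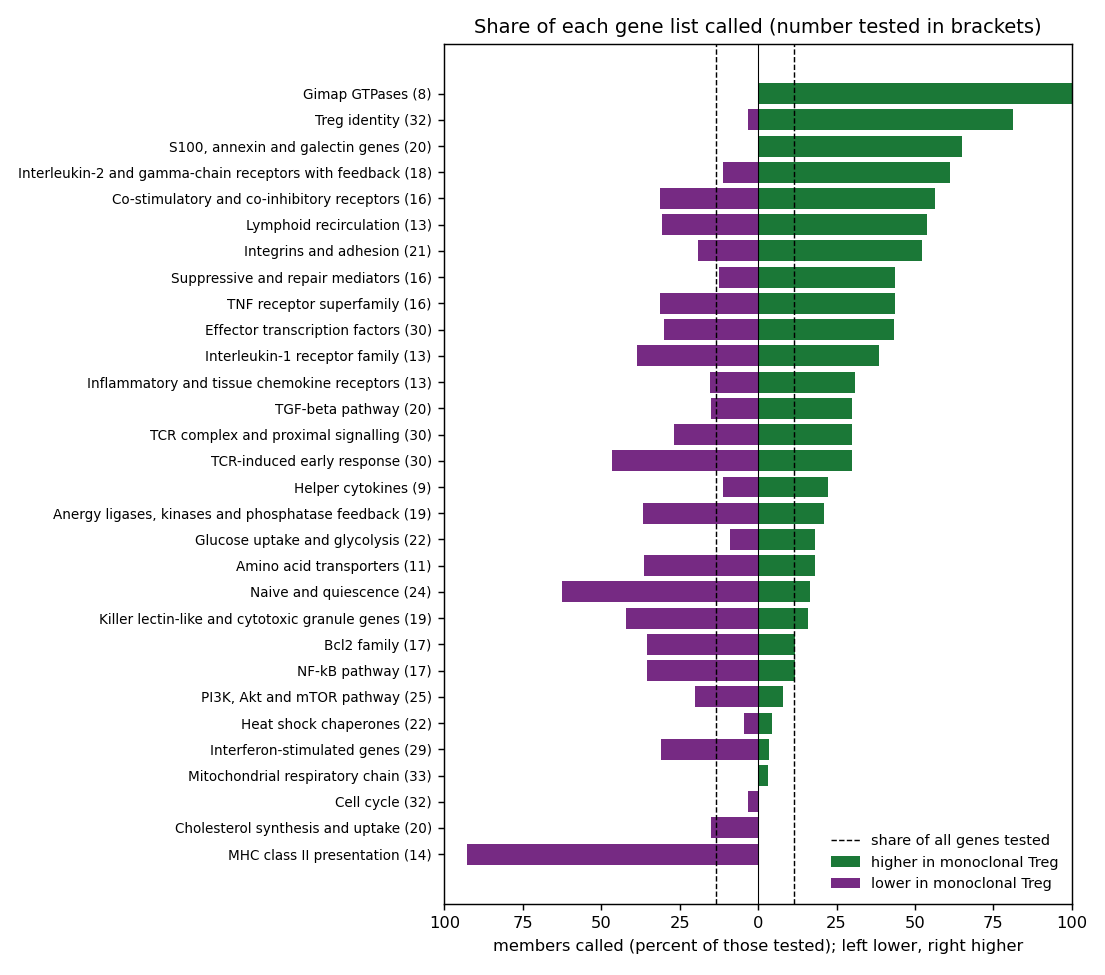
Percent of the tested members of each of 30 gene lists called higher (green, right) or lower (purple, left) in Treg libraries, with the number tested in brackets. Dashed lines mark the share of all genes tested, 11.3% higher and 13.5% lower; Gimap, Treg identity and S100 lists reach farthest right and MHC class II and naive lists farthest left.

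Receptors of the common gamma-chain family and their feedback inhibitors were mostly higher in Treg libraries. Of 18 members 11 rose and 2 fell, with a median log2 fold change of 0.79. Scaling to CD3 genes gave 8 and 6, beside 444 and 5376 of all 12369 genes. Leaving out Treg B, non-Treg A or non-Treg B left 1 lower member. Il9r, the interleukin-9 receptor chain, measured 230 CPM in both Treg libraries and 41 and 36.4 CPM in non-Treg libraries (2.54, SE 0.14, adjusted p = 9.37399e-08). Il2rb, the interleukin-2 receptor chain that signals, measured 521 and 422 against 138.5 and 101 CPM (1.98, SE 0.15). Il7r, the interleukin-7 receptor chain that is usually low on Treg cells, was higher in them here, at 1212 and 1293 against 511 and 464 CPM (1.36, SE 0.09, adjusted p = 4.02158e-07). For all of these receptors both Treg libraries lay above both non-Treg libraries.

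Of the inhibitors that cytokine receptors induce, Cish, Socs1 and Socs2 rose and Socs3 was not called (349 and 251 against 434 and 208 CPM, adjusted p = 0.984007). Cish measured 505 and 443 CPM in Treg and 112 and 83 CPM in non-Treg libraries (2.28, SE 0.14), and Socs1 103 and 86.9 against 35 and 29.2 CPM (1.53, SE 0.18). The kinases downstream were not called: Jak1 measured 934 and 946 against 911 and 886 CPM (0.07, SE 0.08, adjusted p = 0.619968), and Jak3 overlapped between groups at 409 and 367 against 420 and 295 CPM.

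The 2 main survival proteins of lymphocytes went opposite ways. Bcl2l1, which encodes Bcl-xL, measured 93.3 and 103 CPM in Treg and 26.5 and 26.8 CPM in non-Treg libraries (1.85, SE 0.18, adjusted p = 6.44504e-06). Bcl2 measured 97.6 and 93.2 against 310 and 263 CPM (-1.57, SE 0.13, adjusted p = 1.48378e-06). Mcl1, another survival protein, was not called, at 899 and 934 against 883 and 896 CPM (0.04, SE 0.08, adjusted p = 0.763311). In the whole Bcl2 family 2 of 17 members rose and 6 fell, beside 11.3% and 13.5% of all genes tested. Without non-Treg A or B fewer members were called, as were fewer of all genes. Bcl2a1a, Bcl2a1b, Bcl2a1d and Bmf were among the calls lost. Without non-Treg A and without non-Treg B the log2 fold changes were -2.57 and -1.96 for Bcl2a1a and -1.25 and -1.12 for Bcl2a1b. They were -1.76 and -2.37 for Bcl2a1d and -1.53 and -0.72 for Bmf.

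Among TNF receptor family members, which carry co-stimulation into T cells, 7 of 16 rose and 5 fell. Tnfrsf4, or OX40, measured 452 and 488 CPM in Treg and 78.9 and 64.9 CPM in non-Treg libraries (2.70, SE 0.13, adjusted p = 2.92129e-08). Tnfrsf18, or GITR, measured 373 and 408 against 93.6 and 68.6 CPM (2.27, SE 0.15), and Tnfrsf9, or 4-1BB, 48.2 and 40.1 against 10.7 and 4.26 CPM (2.52, SE 0.36). Tnfrsf1b, the TNF receptor that favours Treg growth, measured 389 and 408 against 188 and 173 CPM (1.14, SE 0.11). The members that fell were Tnfrsf1a, Tnfrsf14, Tnfrsf21, Cd40, the receptor for CD40 ligand on antigen-presenting cells, and Ltbr, the lymphotoxin receptor. Cd40 measured 7.62 and 11.6 against 27.1 and 30.9 CPM and Ltbr 9.59 and 8.3 against 24.3 and 28.1 CPM. Those 2 calls were lost without non-Treg A (adjusted p = 0.09462 and 0.09285) or non-Treg B (0.1621 and 0.1694), and the list then had 2 or 1 lower members.

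Co-stimulatory and co-inhibitory receptors also moved both ways, with 9 of 16 higher and 5 lower (3 lower without non-Treg A or B). Tigit, an inhibitory receptor of effector Treg cells, measured 90.2 and 89.7 CPM in Treg and 18.5 and 13.5 CPM in non-Treg libraries (2.43, SE 0.21). Cd200r1, an inhibitory receptor also found on type 2 helper cells, measured 176 and 155 against 37 and 25.7 CPM (2.38, SE 0.19, adjusted p = 1.24631e-06). Icos, an inducible co-stimulator, measured 221 and 258 against 71.8 and 78.6 CPM (1.66, SE 0.13). Havcr2, which encodes Tim-3 on exhausted T cells and on dendritic cells, was lower at 61.9 and 41.3 against 180 and 237 CPM (-2.01, SE 0.19). The inhibitory receptor Lag3 fell too, at 12.6 and 2.82 against 31.8 and 23.3 CPM, but lost its call without non-Treg A (adjusted p = 0.2589), without non-Treg B (0.1945) and by edgeR (0.05428).

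**Figure D4:**
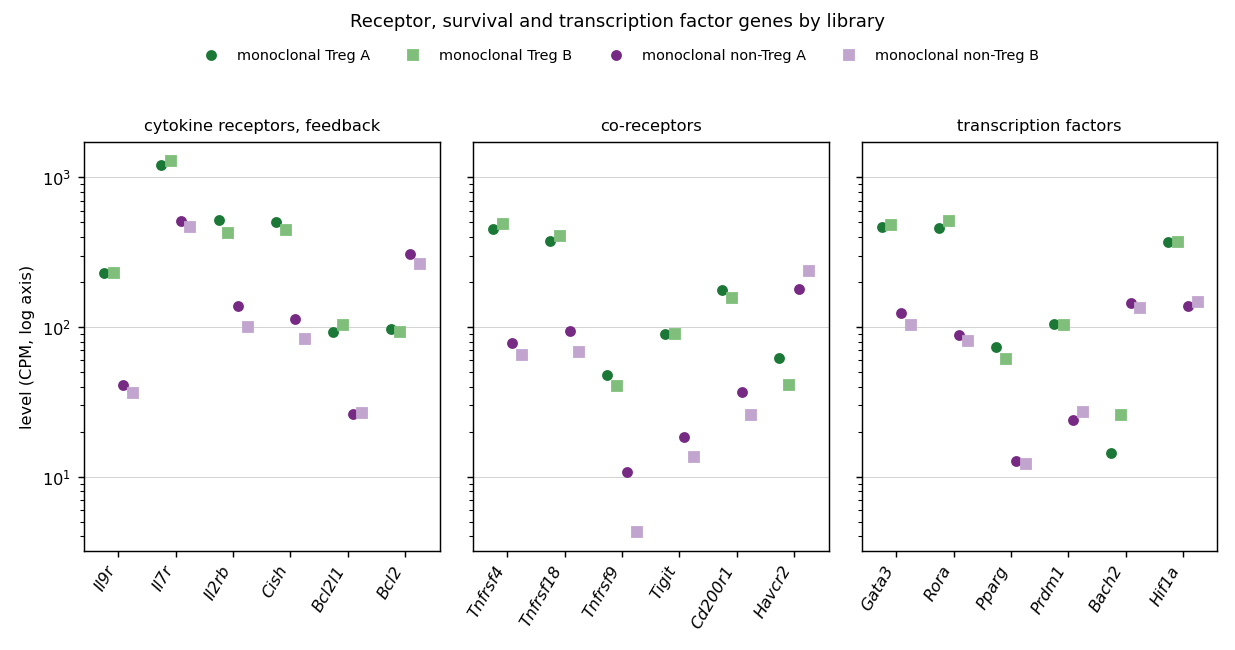
Level in CPM (log axis) of 18 receptor, survival and transcription factor genes in each of the 4 libraries, with 1 point per library. For every gene shown the green Treg points and the purple non-Treg points do not overlap, and Bcl2, Havcr2 and Bach2 are the genes with lower Treg points.

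Receptors and adaptors of the interleukin-1 family moved both ways, with 5 of 13 members higher (3 without non-Treg B) and 5 lower. The 2 chains of the interleukin-18 receptor rose: Il18rap measured 195 and 242 CPM in Treg and 85.2 and 85.8 CPM in non-Treg libraries (1.34, SE 0.14), and Il18r1 262 and 307 against 157 and 159 CPM (0.84, SE 0.12). Il18r1 was not called after scaling to CD3 genes (0.27, adjusted p = 0.2254). The interleukin-1 receptor itself, Il1r1, measured 0 and 1.75 against 15.7 and 19.7 CPM, and its decoy Il1r2 measured 7.88 and 5.53 against 20.1 and 29.3 CPM. Neither call held without non-Treg A (adjusted p = 0.05681 and 0.0627) or non-Treg B (0.09081 and 0.1936), and the list had 0 lower calls without either library.

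Among chemokine receptors of tissues and inflammation, Ccr4, a receptor for skin-homing chemokines, measured 146 and 130 CPM in Treg and 26.3 and 24.4 CPM in non-Treg libraries (adjusted p = 5.91306e-07). Cxcr3, the receptor of interferon-induced chemokines, measured 78.6 and 108 against 36.2 and 39.5 CPM (1.26, SE 0.19). Both rose, as 4 of 13 members tested did, and 2 fell, near the 13.5% of all genes tested. Ccr9, a gut-homing receptor that plasmacytoid dendritic cells also carry, was 1 of the 2 lower members, at 18.1 and 11.5 against 59.9 and 49 CPM; its adjusted p was 0.05662 without non-Treg A, where the list had 0 lower calls, against 4 without Treg B.

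Integrins and adhesion molecules were more often higher than lower in Treg libraries. Of 21 integrin and adhesion genes 11 rose and 4 fell. Scaling to CD3 genes gave 7 and 8, beside 444 and 5376 of all 12369 genes. Itgae, the alpha chain that binds epithelial cadherin, measured 228 and 156 CPM in Treg and 36.5 and 27.7 CPM in non-Treg libraries (2.53, SE 0.20). Itgb7, the beta chain that pairs with it, measured 1769 and 1811 against 1104 and 1061 CPM (0.72, SE 0.08; 0.15 after scaling to CD3 genes), and Itgav, a chain that can free active TGF-beta, 146 and 137.8 against 69.3 and 54.1 CPM (1.20, SE 0.16). The adhesion molecules Cd44 (193 and 220 against 100 and 101 CPM) and Cd2 (587 and 562 against 262 and 223 CPM) also rose. The lower members were Itga5 and the chains Itgam, Itgax and Itgb2, which myeloid cells also carry, and their number was 2 without non-Treg A and 1 without non-Treg B. Itga6 and Itgb3 overlapped between the groups.

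Transcription factors of effector T cells moved in both directions, with 13 of 30 higher and 9 lower. Rora, a nuclear receptor of type 2 and tissue lymphocytes, measured 457 and 513 CPM in Treg and 88.6 and 80.9 CPM in non-Treg libraries (2.50, SE 0.12, adjusted p = 2.92129e-08). Gata3, the type 2 master factor that tissue Treg cells also use, measured 464 and 481 against 124 and 103 CPM (2.06, SE 0.12, adjusted p = 1.2721e-07). Pparg, the nuclear receptor known from fat tissue Treg cells, measured 73.1 and 61 against 12.8 and 12.2 CPM (2.33, SE 0.23, adjusted p = 7.35317e-06). All 3 separated the groups with no overlap.

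Prdm1, which encodes Blimp-1, the factor of effector Treg cells, measured 105 and 104 CPM in Treg and 23.8 and 27.3 CPM in non-Treg libraries (1.99, SE 0.18). Hif1a, the oxygen-sensing factor, measured 371 and 372 against 139 and 146 CPM (1.38, SE 0.11). Zeb2, a repressor that dendritic cells and macrophages also carry, was lower at 17.3 and 8.98 against 61.4 and 69 CPM (-2.29, SE 0.28). Without non-Treg A 8 factors rose and 5 fell, and without non-Treg B 8 rose and 3 fell.

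Genes of naive T cells were lower in Treg libraries: 15 of 24 fell and 4 rose, with a median log2 fold change of -1.05. Bach2, a repressor of effector genes, measured 14.5 and 25.9 CPM in Treg and 145 and 134 CPM in non-Treg libraries (-2.79, SE 0.24, adjusted p = 2.28027e-06). Nsg2, a small vesicle protein on the naive list, measured 8.94 and 6.16 against 108 and 90.2 CPM (-3.56, SE 0.25), and Dapl1, a marker of quiescent T cells, 1.91 and 7.12 against 101 and 77 CPM (-4.20, SE 0.41). Txk, a kinase of resting T cells, measured 55.2 and 74.8 against 164 and 147 CPM (-1.26, SE 0.16). The 4 members that rose were Il7r, Klf2, S1pr1 and Bcl11b, of which Klf2 (0.36), S1pr1 (0.51) and Bcl11b (0.33) changed sign after scaling to CD3 genes (-0.21, -0.06 and -0.24), and 2 rose without Treg A, non-Treg A or non-Treg B.

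Genes of lymphocyte recirculation moved both ways. Of 13 members 7 rose and 4 fell. Cxcr4, the receptor for the bone marrow chemokine, measured 335 and 542 CPM in Treg and 80.7 and 127 CPM in non-Treg libraries (2.06, SE 0.32, adjusted p = 0.0103488), with the B library the higher one in each group. S1pr4, a sphingosine phosphate receptor of lymphocytes, measured 456 and 469 against 192 and 162 CPM (1.39, SE 0.11). Cd69, which holds lymphocytes in tissues, measured 126 and 168 against 62.4 and 47.8 CPM (1.40, SE 0.18).

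The early genes that T cell receptor signals induce moved both ways, with 9 of 30 higher and 14 lower. The 3 Egr genes of the list fell, as did Fos, Fosb and Jun. Fos measured 264 and 259 CPM in Treg and 701 and 716 CPM in non-Treg libraries (-1.44, SE 0.09), and Jun 275 and 264 against 654 and 595 CPM (-1.21, SE 0.10). Fosb measured 208 and 232 against 923 and 1167 CPM (-2.23, SE 0.12), Egr2 15.4 and 12.6 against 63.7 and 62.7 CPM (-2.11, SE 0.22), and Egr3 12 and 16.7 against 62.9 and 52.4 CPM (-1.94, SE 0.24). Nr4a1, a reporter gene of receptor signal strength, measured 315 and 257 against 718 and 678 CPM (-1.29, SE 0.11), and the stress factor Atf3 33.2 and 44.2 against 141 and 257 CPM (-2.28, SE 0.26). In each of these genes the Treg libraries lay below both non-Treg libraries.

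Other genes of the Fos and Jun families were higher. Junb, needed for effector Treg cells, measured 1614 and 1381 CPM in Treg and 917 and 720 CPM in non-Treg libraries (0.88, SE 0.12), and Jund 649 and 592 against 386 and 362 CPM (0.73, SE 0.10). Fosl2, a Fos family gene, measured 45.1 and 49.6 against 36.3 and 23.2 CPM and was near the threshold (0.69, SE 0.24, adjusted p = 0.0494776), a call lost without any 1 of the 4 libraries (adjusted p up to 0.5443). After scaling to CD3 genes the differences of Junb and Jund were 0.31 and 0.16. With that scaling 2 early genes rose and 18 fell, beside 444 and 5376 of all 12369 genes. Dusp1, Zfp36 and Ier2, which respond to the same signals, were not called: Dusp1 measured 276 and 341 against 292 and 332 CPM (-0.02, SE 0.12, adjusted p = 0.932183). Higher calls in the list numbered 6 without Treg B or non-Treg A and 4 without non-Treg B, and lower calls 9 without non-Treg A and 8 without non-Treg B. Dendritic cells can express Fos, Jun, Egr and Atf3 genes too, and their part was not tested.

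**Figure D5:**
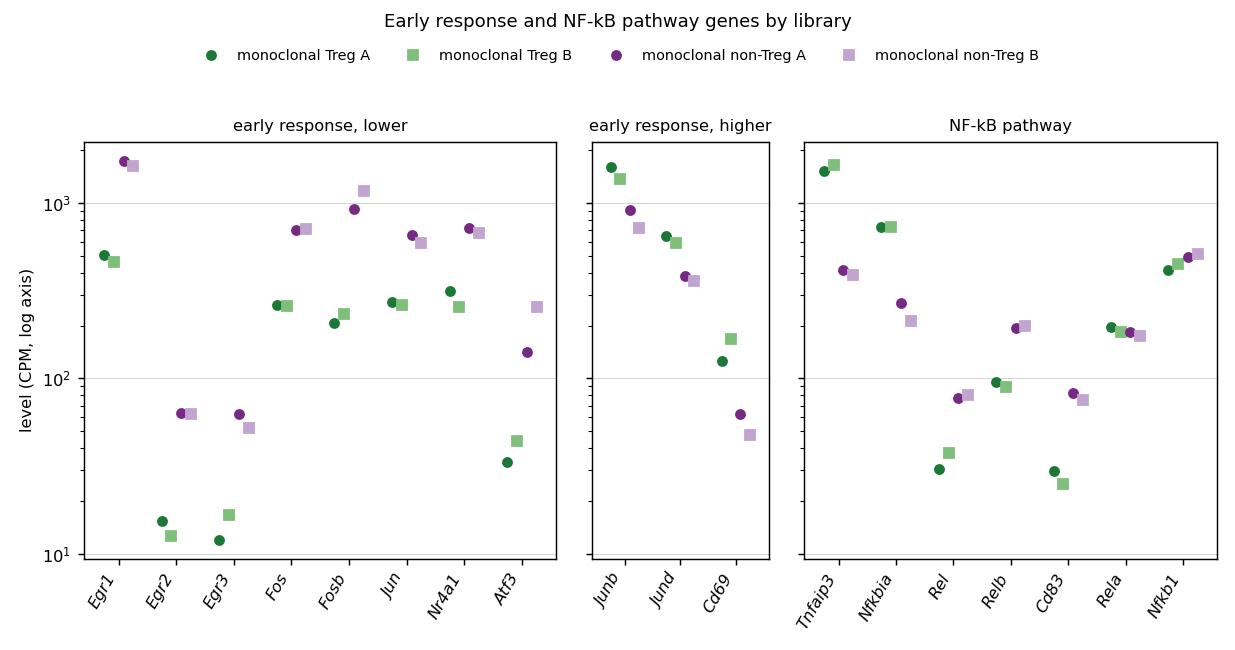
Level in CPM (log axis) of early response genes and NF-kB pathway genes in each of the 4 libraries, with 1 point per library. The 8 early genes at the left have lower Treg points, Junb, Jund and Cd69 higher ones, and in the right panel Tnfaip3 and Nfkbia are higher while Rel, Relb and Cd83 are lower.

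Of 17 NF-kB pathway genes 2 rose, near the 11.3% of all genes tested. Lower calls numbered 6 (fewer without non-Treg B), beside 13.5% of all genes tested. The 2 that rose encode inhibitors, as do genes given below that fell or were not called. Tnfaip3, which encodes the ubiquitin-editing inhibitor A20, measured 1535 and 1662 CPM in Treg and 415 and 390 CPM in non-Treg libraries (1.99, SE 0.09, adjusted p = 2.15743e-08). Nfkbia, the inhibitor that holds NF-kB in the cytoplasm, measured 735 and 727 against 269 and 212 CPM (1.61, SE 0.12, adjusted p = 6.6986e-07). The subunits Relb (95.5 and 89 against 195 and 199 CPM) and Rel (30.6 and 37.4 against 77.7 and 80.7 CPM) fell, by log2 fold changes of -1.08 and -1.20, and Rel had an adjusted p of 0.0577 without non-Treg B. Rela (196 and 184 against 183 and 174 CPM) and Nfkb1 (417 and 449 against 494 and 515 CPM) were not called, nor were the subunit gene Nfkb2 and the inhibitors Nfkbib and Nfkbie. Nfkbid, another inhibitor, fell (162 and 147 against 212 and 205 CPM; -0.43, SE 0.12), but its call was lost without Treg B (adjusted p = 0.05715), non-Treg A (0.185) or non-Treg B (0.1694). Rel, Relb and Cd83 are expressed by dendritic cells as well as T cells, and the part of dendritic cells in their fall was not tested.

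Promoter sequences are shown for 4 of these genes, the 2 NF-kB inhibitors that rose and 2 early genes that fell. These windows were chosen because each holds letters of a known response element, so they do not stand for their sets. Each is the 250 bases before a RefSeq transcript start on GRCm38.p6, read 5′ to 3′ on the gene's strand. Capitals mark letters that match the NF-kB site in Nfkbia, Tnfaip3 and Fosb, and the CArG box, which serum response factor recognises, in Egr2. Nfkbia lies on chr12:55492648-55492897, minus strand, Tnfaip3 on chr10:19015411-19015660, minus strand, Egr2 on chr10:67537619-67537868, plus strand, and Fosb on chr7:19310046-19310295, minus strand.
Nfkbia: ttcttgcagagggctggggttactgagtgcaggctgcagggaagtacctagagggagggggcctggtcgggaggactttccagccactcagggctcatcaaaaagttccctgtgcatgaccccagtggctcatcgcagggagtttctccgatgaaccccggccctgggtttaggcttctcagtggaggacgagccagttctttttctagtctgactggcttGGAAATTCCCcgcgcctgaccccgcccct
Tnfaip3: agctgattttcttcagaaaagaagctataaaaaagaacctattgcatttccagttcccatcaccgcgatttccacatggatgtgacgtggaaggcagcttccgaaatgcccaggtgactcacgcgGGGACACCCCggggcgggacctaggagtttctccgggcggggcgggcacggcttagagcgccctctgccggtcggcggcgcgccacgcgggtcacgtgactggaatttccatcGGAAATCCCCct
Egr2: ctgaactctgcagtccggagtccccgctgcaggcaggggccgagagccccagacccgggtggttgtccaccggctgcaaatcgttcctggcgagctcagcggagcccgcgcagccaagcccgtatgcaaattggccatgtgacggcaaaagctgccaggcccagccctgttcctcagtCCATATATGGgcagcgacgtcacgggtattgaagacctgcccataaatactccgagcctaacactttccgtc
Fosb: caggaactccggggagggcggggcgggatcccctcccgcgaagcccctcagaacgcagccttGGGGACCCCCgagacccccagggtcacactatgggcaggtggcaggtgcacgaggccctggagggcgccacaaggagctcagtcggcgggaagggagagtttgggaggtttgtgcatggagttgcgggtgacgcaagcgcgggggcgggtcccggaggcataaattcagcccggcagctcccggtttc

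The match in Nfkbia begins 29 bases before the start, those in Tnfaip3 125 and 12 bases before it, the one in Egr2 72 bases before it and the one in Fosb 188 bases before it. Both strands were searched for the full motifs. Tnfaip3 and Egr2 each also have a start whose window holds no match (chr10:19011964-19012213 and chr10:67535249-67535498). Over all mouse genes with a promoter in the RefSeq table, 4.46% (1204 of 27025) hold an NF-kB site in a window of this length and 1.62% (439) a CArG box. Of the 14 early genes that fell 11 were matched to the table, and 1 of these holds a CArG box (Egr2) and 3 an NF-kB site (Fos, Fosb and Nfkbid). Of 8 matched early genes that rose 2 hold an NF-kB site (Fosl2 and Tnfaip3) and 0 a CArG box, and of 6 matched ones not called 1 holds an NF-kB site (Ier3) and 1 a CArG box (Zfp36). Both NF-kB pathway genes that rose hold an NF-kB site, as do 2 of the 4 matched genes that fell (Rel and Nfkbid) and 2 of the 7 matched genes not called (Nfkb2 and Nfkbie). A match is a run of letters in these windows and no measure of binding.

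Signalling genes behind the receptor showed no single direction. Of 30 members of the T cell receptor complex and its proximal pathway 9 rose and 8 fell. After scaling to CD3 genes 1 rose and 16 fell, beside 444 and 5376 of all 12369 genes. Cd3e rose (716 and 768 against 454 and 406 CPM, log2 fold change 0.79, SE 0.10). It was not called by limma after that scaling (0.22, adjusted p = 0.2967). Cd3e is itself among the genes summed for the scaling, so this drop was partly built in and is no check of its call. Cd4, the co-receptor that defines both groups, fell (827 and 792 against 1257 and 1360 CPM, log2 fold change -0.69, SE 0.08). The phosphatase gene Ptpn6, which encodes SHP-1 and is shared with myeloid cells, measured 230 and 190 against 507 and 510 CPM (-1.28, SE 0.11). Lck, Lat and Cd247 were not called. Higher calls numbered 6 without non-Treg A and 4 without non-Treg B.

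Feedback phosphatases that act on MAP kinases moved both ways, with Dusp2, Dusp4 and Dusp5 higher, Dusp6 lower and Dusp1 and Dusp10 not called. The call of Dusp2 was lost without Treg B, non-Treg A or non-Treg B (adjusted p up to 0.3666), and its log2 fold change went from 0.43 to -0.13 after scaling to CD3 genes. Dusp5 measured 133 and 160 CPM in Treg and 44.8 and 38.1 CPM in non-Treg libraries (1.79, SE 0.16), and Dusp4 46.5 and 71 against 14.4 and 13.7 CPM (1.96, SE 0.25). Dusp6, which acts on ERK kinases, measured 23.7 and 26 against 63.3 and 64.2 CPM (-1.32, SE 0.19). Nedd4, an E3 ligase, fell (42.2 and 44.7 against 120 and 189 CPM; -1.77, SE 0.20). Of the 19 anergy and feedback genes 4 rose and 7 fell, with 2 higher without non-Treg A or B. The diacylglycerol kinases Dgka and Dgkz were not called (adjusted p = 0.121132 and 0.905979).

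Of 25 phosphoinositide signalling genes 2 rose and 5 fell, beside 11.3% and 13.5% of all genes tested. The 2 that rose remove or oppose the signal: Inpp4b, a lipid phosphatase, measured 846 and 774 CPM in Treg and 405 and 366 CPM in non-Treg libraries (1.07, SE 0.10), and Phlpp1, a phosphatase of Akt, 147 and 116 against 43.8 and 50.3 CPM (1.46, SE 0.17). Among those that fell, Pik3ip1, an inhibitor of the kinase in resting T cells, measured 22.3 and 21.1 against 126 and 120 CPM (-2.45, SE 0.17). The catalytic subunit Pik3cd measured 996 and 955 against 1700 and 1669 CPM (-0.79, SE 0.08), and the regulatory subunit Pik3r5 224 and 225 against 484 and 451 CPM (-1.05, SE 0.10). Lower calls numbered 3 without non-Treg A or B, the call of Pik3cg being among those lost (adjusted p = 0.1331 and 0.1722).

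TGF-beta pathway genes rose in 6 and fell in 3 of 20 members tested, beside 11.3% and 13.5% of all genes. The share that fell was thus near that of all genes. Tgfbr3, the co-receptor betaglycan, fell from 82.3 and 63.4 CPM in non-Treg to 8.34 and 9.49 CPM in Treg libraries (-2.89, SE 0.25, adjusted p = 2.50154e-06). The signalling chain Tgfbr2 fell less, from 368 and 372 to 255 and 202 CPM (-0.70, SE 0.12), while the BMP receptor Bmpr2 rose from 31.9 and 34.6 to 70.8 and 80.4 CPM (1.16, SE 0.18). Smad3, the signal transducer, rose from 89.6 and 88.7 to 184 and 159 CPM (0.93, SE 0.13), but was not called after scaling to CD3 genes (0.37, adjusted p = 0.117). Higher calls numbered 4 without non-Treg A and 3 without non-Treg B, and lower calls 1 without either; among those lost was Itgb8 (adjusted p up to 0.3651).

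Gimap genes encode small GTPases that support lymphocyte survival, and their 8 measured members form a cluster on chromosome 6 (mm9 positions 48597233 to 48720850 in the deposited table). All 8 rose, with a median log2 fold change of 0.85. Gimap7 changed most of these, from 49.5 and 43.9 CPM in non-Treg to 231 and 249 CPM in Treg libraries (2.34, SE 0.14, adjusted p = 1.59453e-07). Gimap3 rose from 830 and 681 to 1307 and 1388 CPM (0.84, SE 0.10). After scaling to CD3 genes the median was 0.29 and Gimap7 alone was called (1.77), Gimap4 and Gimap6 having fold changes of -0.02 and -0.18. Without non-Treg B 5 of the 8 were called.

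S100, annexin and related genes of memory cells rose in 13 of 20 members, and 0 fell by limma, edgeR or DESeq2 (0 at an unadjusted p under 0.05). S100a6 measured 391 and 323 CPM in Treg and 125 and 109 CPM in non-Treg libraries (1.60, SE 0.13), S100a10 729 and 682 against 276 and 249 CPM (1.42, SE 0.10), and S100a4 573 and 492 against 275 and 255 CPM. The large scaffold gene Ahnak measured 1475 and 1674 against 544 and 645 CPM (1.41, SE 0.10), and the intermediate filament gene Vim 1151 and 1037 against 476 and 415 CPM (1.30, SE 0.10). Lgals1, which encodes galectin-1, measured 265 and 273 against 127 and 101 CPM (1.24, SE 0.13). Anxa2, Anxa5 and Lgals3 were not called. Fewer members rose without non-Treg B. After scaling to CD3 genes 7 rose and 2 fell, beside 444 and 5376 of all 12369 genes, and the list's median was -0.01.

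Most helper cytokine genes were at or near 0. Of 21 genes 12 did not pass the filter on low values and 10 of these had 0 reads in all 4 libraries, among them Il2, Il4, Il5 and Il13, the last 3 being type 2 cytokines. Ifng, the type 1 cytokine, measured 0.92 and 2.82 CPM in Treg and 1.55 and 0.322 CPM in non-Treg libraries. Among TNF family ligands Tnfsf11, or RANKL, rose (56.4 and 39.8 against 10.9 and 8.45 CPM; 2.19, SE 0.28) and Tnfsf8, the CD30 ligand, fell (6.44 and 15 against 63.1 and 56.6 CPM; -2.48, SE 0.32). Cd40lg, the ligand through which helper T cells license antigen-presenting cells, measured 1.05 and 11.9 against 40 and 53.7 CPM. The groups did not overlap, but the Treg libraries differed widely and limma did not call it (-3.20, SE 0.96, adjusted p = 0.0898724). A limma fit over all 8 libraries called it (adjusted p = 0.009225), as did limma with no filter (0.0445) or a pseudocount of 5 CPM (0.002605). Scaling to CD3 genes and the replicate letter as a block also gave a call, while edgeR and DESeq2 did not.

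Of 19 killer lectin-like and granule genes tested 3 rose and 8 fell, but 1 fell without non-Treg A and 0 without non-Treg B. Klrb1b, a lectin receptor of natural killer cells and some T cells, measured 2.69 and 2.03 CPM in Treg and 17.5 and 22.9 CPM in non-Treg libraries, with an adjusted p of 0.08197 without non-Treg B. Prf1, which encodes perforin, measured 4.14 and 6.04 against 16.5 and 13.7 CPM, so the granule genes Gzmb and Prf1 went opposite ways; the call of Prf1 was lost without either non-Treg library (adjusted p = 0.2524 and 0.207). The natural killer receptor Ncr1 overlapped between groups at 9.72 and 10.8 against 10.3 and 8.13 CPM.

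Few cell cycle and respiratory chain genes were called. Of 32 cell cycle genes 0 rose by limma, edgeR or DESeq2 (3 at an unadjusted p under 0.05), and 1, E2f1, fell (2.83 and 2.99 against 15.6 and 15.9 CPM), a call lost without non-Treg A or B (adjusted p = 0.09433 and 0.1182). Without Treg A 3 cell cycle genes rose and 2 fell, and without Treg B 1 rose and 2 fell. Mki67, a marker of dividing cells, measured 101 and 109 CPM in Treg and 92.8 and 103 CPM in non-Treg libraries (0.09, SE 0.14, adjusted p = 0.690381). Of 33 respiratory chain genes 1 rose and 0 fell (0 fell at an unadjusted p under 0.05, and 0 by edgeR or DESeq2), and the 1, Uqcrc1 (0.43), changed sign after scaling to CD3 genes (-0.14) and was not called without non-Treg A or B (adjusted p = 0.1176 and 0.3369); 1 gene fell without Treg A.

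Among 22 glycolysis genes, scaling to CD3 genes gave 1 higher and 10 lower, beside 444 and 5376 of all 12369 genes. Without that scaling 4 rose (fewer without non-Treg A or B) and 2 fell, beside 11.3% and 13.5% of all genes. Besides Hif1a the higher ones were Aldoa, Tpi1 and Slc2a3, all with log2 fold changes of at most 0.68 and none called after that scaling. Hk2, the inducible hexokinase, fell (14.8 and 19.2 against 36 and 59.6 CPM; -1.40, SE 0.27), with an adjusted p of 0.1867 without non-Treg B. Among 20 genes of cholesterol synthesis and uptake 3 fell, near the 13.5% of all genes tested. More fell without Treg A and fewer without non-Treg A or B. Of 11 amino acid transporters 2 rose and 4 fell, and the 4 lower calls were 1 without non-Treg A and 0 without non-Treg B; Slc43a1 rose from 1.22 and 1.48 to 14.9 and 15.1 CPM (2.77, SE 0.43).

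Interferon-stimulated genes fell in 9 and rose in 1 of 29 members, but 1 fell without non-Treg A or B, and 3 rose without Treg B or non-Treg A. Oas2, an antiviral enzyme, measured 31.5 and 32 CPM in Treg and 129 and 156 CPM in non-Treg libraries (-2.13, SE 0.17, adjusted p = 1.24631e-06). The 1 gene that rose was Gbp3, a GTPase induced by interferon gamma, at 409 and 301 against 88.4 and 69.2 CPM (2.15, SE 0.16, adjusted p = 9.7937e-07).

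The genes with the largest changes included several outside any list. Acot12, a thioesterase of acetyl-CoA known from the liver, had the highest log2 fold change of the genes chosen by the naming rule, at 17.5 and 17.8 CPM in Treg and 0.832 and 0.645 CPM in non-Treg libraries (3.43, SE 0.44, adjusted p = 8.3803e-05). Tktl1, a transketolase-like gene, measured 13.1 and 23.9 against 1.94 and 0.516 CPM (3.15, SE 0.50), and Slc52a3, a riboflavin transporter, 19.9 and 24.8 against 1.94 and 2 CPM (2.97, SE 0.39).

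On the lower side, Tns4, a tensin of focal adhesions, and Slc6a7, a proline transporter, had 0 reads in both Treg libraries. The non-Treg libraries had 29.9 and 18.1 CPM of Tns4, at least 131-fold more, and 16.7 and 18.4 CPM of Slc6a7, at least 95.8-fold more, both against the mean floor of 3 reads per Treg library. Rapgef4, an exchange factor activated by cyclic AMP, measured 3.81 and 3.28 against 67.4 and 70.2 CPM (-3.94, SE 0.28, adjusted p = 6.6986e-07). Havcr1, which encodes the phosphatidylserine receptor Tim-1, measured 0 and 0.226 against 18.6 and 12.6 CPM (-3.88, SE 0.49). Adam11 (7.29 and 9.04 against 99.9 and 71.9 CPM) and Dzip1 (6.5 and 4.35 against 63.7 and 66.2 CPM) fell to a like degree.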

How the data were processed

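RNA-seq of spleen CD4+ T cells was analysed in 4 monoclonal libraries, 2 Treg and 2 non-Treg; the 4 polyclonal libraries entered only named alternatives and a grouping of genes by level. The libraries were poly-dT selected, strand-preserving and read from 1 end over 50 bp, per the labels' protocols. Tools listed in the submitters' processing notes, with no role given, are STAR 2.4.1a, HOMER 4.7, Trimmomatic 0.33, FastQC 0.10.1, CASAVA 1.8.2 and edgeR, with the build mm9. The authors deposited CPM for 24016 genes, each library summing to 1000000; 100% of the values were whole multiples of 1 read (tolerance 0.01 read), so whole reads were recovered (15220596 to 18033924 a library). The treatment of reads that fit several genes is not stated, so near-identical genes such as Bcl2a1a, Bcl2a1b and Bcl2a1d are uncertain.

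The 12369 genes that reached 1 CPM in 2 or more of the 4 libraries were tested on log2(CPM + 1) by limma 3.58.1 (R 4.3.3), with trend and robust spread (2 residual and a median of 10.9 prior degrees of freedom), 2-sided, with Benjamini-Hochberg adjustment over all genes at 0.05. The pseudocount understates the change of low genes. On counts simulated from the mean levels of these libraries, limma called 86% of 2-fold and 100% of 4-fold changes. There were 3 false calls among 12063 unchanged genes. The simulation gave every gene the same dispersion, changed 100 genes at each fold and let replicates differ by counting and that dispersion only. It was a check of the code and does not give the power or false call rate of the real contrast. Alternatives were a fit over all 8 libraries, the replicate letter as a block, pseudocounts of 0.25 and 5 CPM, 2 filters, TMM and CD3 gene scaling (Cd3d, Cd3e, Cd3g and Cd247), edgeR 4.0.16 and DESeq2 1.42.0 on recovered reads, a set of genes at 5 CPM or more in polyclonal libraries, and each library left out.

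The members and lists were chosen with earlier results of these data known. Named genes were the 15 largest changes each way among called genes whose mean log2 level reached 2 and whose libraries showed no overlap between groups, up to 6 called and 3 uncalled members of each list, the 10 called genes with the highest mean CPM, and Foxp3, Cd3e, Cd4, Itgax, Cd74, S100a9, Rag1 and Rag2. Other list members given in the text, among them Il7r, Icos, Fos, Fosl2, Jun, Junb, Nr4a1, Nfkbid, Dusp2, Dusp6, Ikzf4, Capg and Hopx, were chosen after their values were seen. Some genes that the rule names are not reported here. Promoters are from RefSeq on GRCm38.p6; gene positions are the deposited ones (mm9).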

Additional observations from a re-analysis of the deposited data

How the results depend on the processing

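Of 205 called named genes, 0 lost the call under TMM or a pseudocount of 5 CPM, 3 under 0.25 CPM or by DESeq2, 11 in the fit over all 8 libraries, 15 by edgeR and 16 with no filter; none of these settings reversed a named gene. Called genes numbered 1396 higher and 1665 lower. Scaling to CD3 genes gave 444 and 5376, with 22 named genes no longer called and 7 reversed: Actb (-0.10), Bcl11b (-0.24), Cd6 (-0.13), Pdia4 (-0.10), Slc2a3 (-0.016), Tmsb4x (-0.17) and Uqcrc1 (-0.14). Leaving out 1 library gave 404 to 1557 higher and 428 to 2060 lower calls, the lowest without non-Treg B; the cause was not tested. Of 142 list members called higher 92, and of 158 called lower 74, were called in all 4 of those fits. With the replicate letter as a replicate block the calls were 1679 and 1971, and 9 of 14 neutrophil markers, Ngp, S100a8 and S100a9 among them, were called higher in place of 0; the labels do not say that letters pair the samples, and the deviations of the A libraries correlated at 0.102 across the groups. Genes at 5 CPM or more in every polyclonal library gave 1264 and 1112. Calls of single genes lost without 1 non-Treg library were not told apart from the drop in calls over all genes in those fits. Genes under about 10 CPM rest on few reads and on 2 libraries a side.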

Other observations

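Among 22 heat shock chaperone genes tested 1 rose and 1 fell in Treg libraries (4 fell without Treg A, and 0 rose without non-Treg A or B). The summed level of the list was 4279 and 4431 CPM in Treg and 4578 and 5064 CPM in non-Treg libraries, but single members differed by library letter. Hspa1a, the inducible chaperone, measured 15.4 CPM in Treg A and 23.5 CPM in non-Treg A against 59.4 and 169 CPM in the B libraries. Dnajb1, its partner, measured 119 and 117 CPM in the A libraries against 236 and 244 CPM in the B libraries. The gene that fell was Hspa5, the chaperone of the endoplasmic reticulum, at 532 and 524 CPM in Treg and 783 and 746 CPM in non-Treg libraries (limma log2 fold change -0.53, SE 0.09, adjusted p = 0.00061576). The gene that rose, Pdia4 (0.47), changed sign after scaling to CD3 genes (-0.10).

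Erythroid and platelet genes were low in all 4 libraries, with summed levels of 74.4 and 153 CPM in Treg and 63 and 103 CPM in non-Treg libraries, and 0 of the 10 tested were called by limma, edgeR or DESeq2 (0 at an unadjusted p under 0.05), though 1 rose without Treg A and 1 fell without Treg B. Kit, a growth factor receptor of mast cells and progenitors, fell (80.9 and 39.1 against 232 and 288 CPM; -2.18, SE 0.35, adjusted p = 0.00918366), while the mast cell genes Cpa3 and Hdc overlapped between groups at up to 5.1 CPM.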
